A study of Glycine max with 4 samples.

Results

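The genes described here are the 4 soybean homologues of LATE ELONGATED HYPOCOTYL (LHY) and CIRCADIAN CLOCK ASSOCIATED 1 (CCA1), taken by identifier from a table of 56044 genes. They are LHY1a (Glyma.16G017400, chromosome 16), LHY1b (Glyma.07G048500, chromosome 7), LHY2a (Glyma.19G260900, chromosome 19) and LHY2b (Glyma.03G261800, chromosome 3). The rule that chose them uses identifiers and no measured value. The chromosome is the one that the digits before the G of each identifier name. The RefSeq table of another soybean assembly holds genes with these 4 names on the same chromosomes, under the symbols LCL1 for LHY1a, LCL4 for LHY1b, LCL3 for LHY2a and MYB114 for LHY2b.

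LHY and CCA1 are single-MYB transcription factors at the morning end of the plant circadian clock. In Arabidopsis their transcripts peak around dawn, and the proteins bind promoters of evening genes and repress them, while products of later clock genes repress LHY and CCA1 in turn. In soybean, LHY proteins are known to repress the maturity gene E1, which delays flowering, and plants that lack all of these genes are short, with short internodes. LHY1a and LHY1b are a pair of close duplicates, as are LHY2a and LHY2b, so the results are given by pair.

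RNA was sequenced from shoot tips of cultivar Thorne, grown for 1 month in a greenhouse; each tip was 5 cm long, held immature trifoliate leaves and gave 1 library per plant. Tagged plants (tagged 1 and tagged 2) were transgenic and positive for the mmPing20F element, an activation tag built from the rice transposon mPing, at chromosome 8 position 2785626. The untagged plants lacked this insertion, and they were of different kinds. One was transgenic, with the construct that expresses the transposase (transgenic untagged), and the other was an untransformed Thorne plant. The labels do not say how the tagged plants are related to each other or to the transgenic untagged plant, nor at what hour each tip was frozen. Replicates are separate plants by their labels. Each p-value from a fitted model below rests on the spread among the few libraries of the same group. The fit moderates the spread of each gene with that of all other genes. A group of 1 library adds no spread of its own.

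Library totals ran from 27900266 to 49210060 counts, and the 4 LHY genes together took between 5341 and 60240 counts per library. The untransformed library stood apart from the other 3 over the whole table. Of 40884 genes tested, edgeR's quasi-likelihood test at an adjusted p of 0.05 called 9510 genes (23.3%) higher and 10555 genes (25.8%) lower in the 3 transgenic plants than in the untransformed one. The comparison of tagged with untagged plants is therefore given with and without it. Normalized counts, as used below, are the values that the authors deposited after dividing the counts of a library by its size factor.

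All 4 LHY genes were far lower in the 3 transgenic plants than in the untransformed plant. LHY1a had 4234 and 4452 normalized counts in the tagged plants and 4132 in the transgenic untagged plant, against 30325 in the untransformed plant. LHY1b had 1035 and 978 normalized counts in the tagged plants and 897 in the transgenic untagged plant, against 6523 in the untransformed plant. Both genes of the LHY1 pair thus had 1 high plant and 3 low ones, and the low ones, tagged or not, lay close together.

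The LHY2 pair had the same order with a wider gap. LHY2a had 352 and 490 normalized counts in the tagged plants and 282 in the transgenic untagged plant, against 10447 in the untransformed plant. LHY2b had 437 and 485 normalized counts in the tagged plants and 358 in the transgenic untagged plant, against 23447 in the untransformed plant. LHY2a varied the most of the 4 genes among the transgenic plants, with a coefficient of variation of 28.2% (n = 3). The coefficient was 15.1% for LHY2b, 7.17% for LHY1b and 3.83% for LHY1a, against a median of 11.0% over 32963 genes. Those genes averaged 50 or more normalized counts over the 4 libraries and had counts in a transgenic plant.

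**Figure D1:**
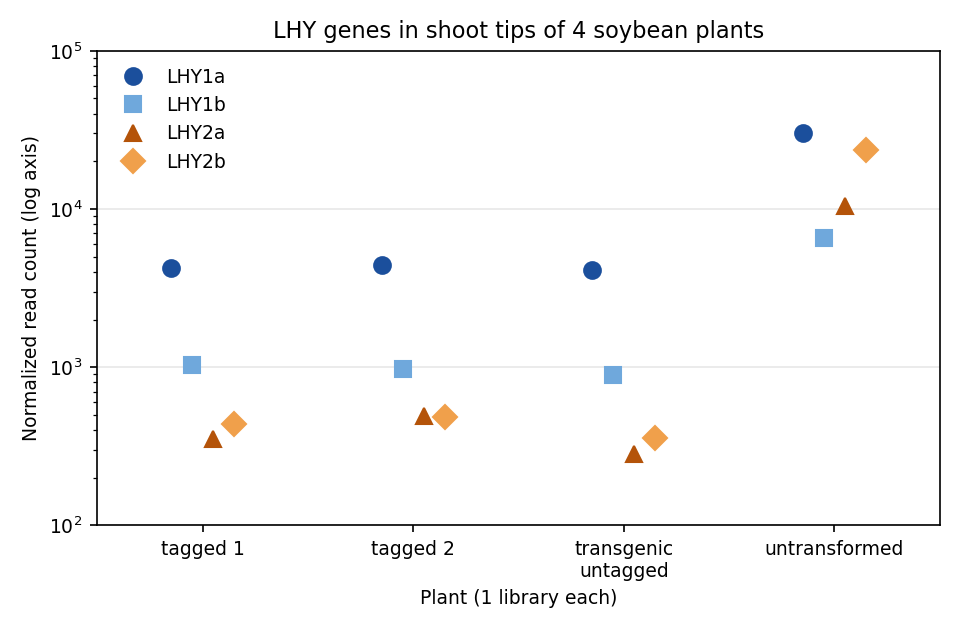
Normalized read count (log axis) of the 4 LHY genes in each of the 4 plants; each point is 1 gene in 1 library. The 3 transgenic plants lie between 4132 and 4452 for LHY1a, between 897 and 1035 for LHY1b, between 282 and 490 for LHY2a and between 358 and 485 for LHY2b, and the untransformed plant is higher at all 4 genes, at 30325 for LHY1a and 23447 for LHY2b.

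By transgenic status, the labels give 3 transgenic plants and 1 untransformed plant, and all 4 LHY genes fell in the transgenic plants. LHY2b fell the most, to 427 ± 64.4 normalized counts (SD, n = 3) in transgenic plants, against 23447 in the untransformed plant. Its log2 fold change was -5.76 ± 0.20 (SE), at an edgeR adjusted p of 2.48e-05, and it was 54.1-fold lower (95% interval 38.7 to 75.7). LHY2a fell to 375 ± 106 normalized counts in transgenic plants, against 10447 in the untransformed plant. Its log2 fold change was -4.78 ± 0.26, at an edgeR adjusted p of 6.26e-05, and it was 27.5-fold lower (17.9 to 42.3).

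The LHY1 pair fell by less. LHY1a fell to 4272 ± 164 normalized counts in transgenic plants (SD, n = 3), against 30325 in the untransformed plant, a log2 fold change of -2.81 ± 0.17 at an edgeR adjusted p of 8.0e-05. LHY1b fell to 970 ± 69.5 normalized counts in transgenic plants, against 6523 in the untransformed plant, a log2 fold change of -2.73 ± 0.14 at an edgeR adjusted p of 5.9e-05. These are 6.99-fold (5.30 to 9.23) and 6.62-fold (5.22 to 8.41) lower levels, so the intervals of the LHY1 genes overlap each other and lie wholly outside those of the LHY2 genes. The intervals of LHY2a and LHY2b overlap between 38.7-fold and 42.3-fold.

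All 4 of 4 LHY genes passed the test as lower in transgenic plants, where 25.8% of all tested genes did. The median log2 fold change of the 4 was -3.79, beside 0.03 over all tested genes. Of the genes tested, 342 (0.837%) had a lower log2 fold change than LHY2b, and 626 genes (1.53%) had a lower one than LHY2a. For LHY1a the number was 2089 (5.11%) and for LHY1b 2215 (5.42%). In level, the untransformed plant was above all 3 transgenic plants at each LHY gene, as it was at 43.3% of tested genes.

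The untransformed side of this comparison is a single library, which was assumed to vary like the 3 transgenic ones. Being untransformed, belonging to another line, the hour of sampling and the handling of its tissue cannot be told apart for that plant. In whole shoot tips, fewer cells that express a gene and less RNA per cell cannot be told apart either.

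**Figure D2:**
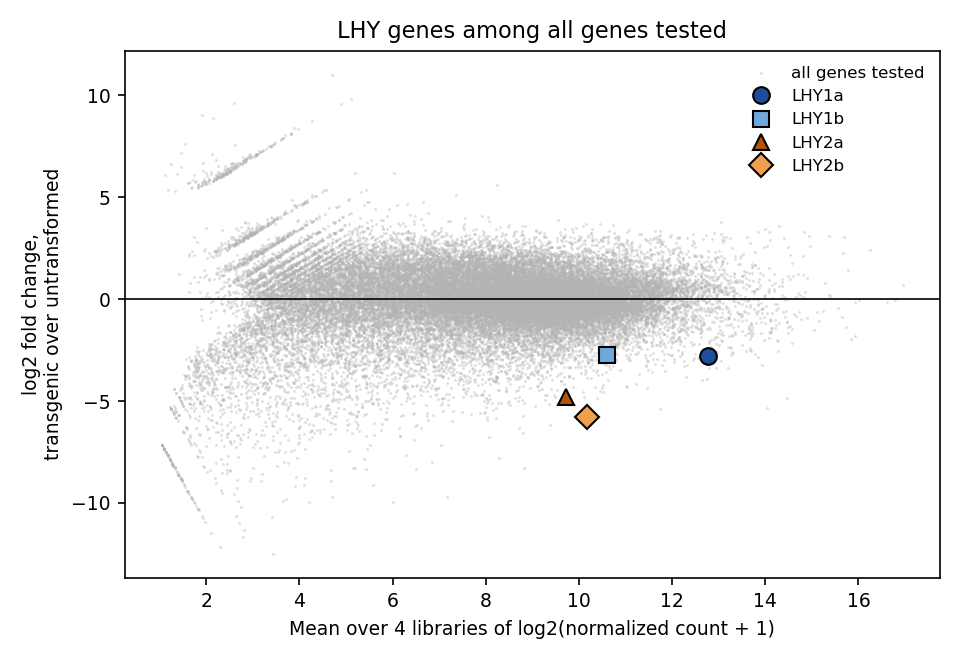
Log2 fold change of transgenic over untransformed plants against the mean log2(normalized count + 1) over the 4 libraries, for the 40884 genes tested (grey) and the 4 LHY genes (coloured). The LHY genes lie below the median of all tested genes (0.03), LHY1a and LHY1b at -2.81 and -2.73 and LHY2a and LHY2b at -4.78 and -5.76. Of the genes tested, 5.42% lie below LHY1b, the highest of the 4.

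The make-up of the LHY reads also differed between the plants. Ratios between genes within 1 library do not depend on depth or scaling. Gene lengths were not used, so only the change of a ratio between libraries is described, not which gene is more abundant. The LHY2 pair made up 13.0% (exact Clopper-Pearson 95% interval 12.3 to 13.7) of the LHY counts in tagged 1 and 15.2% (14.3 to 16.2) in tagged 2. Its share was 11.3% (10.5 to 12.2) in the transgenic untagged plant, against 47.9% (47.5 to 48.3) in the untransformed plant. These intervals cover counting error only.

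Within the LHY2 pair, the balance between the duplicates shifted towards LHY2b in the untransformed plant. LHY2b took 55.4% (52.5 to 58.3) of the LHY2 counts in tagged 1, 49.8% (46.3 to 53.2) in tagged 2, 55.9% (51.8 to 59.9) for the transgenic untagged plant, against 69.2% (68.6 to 69.7) in the untransformed plant. The ratio of LHY2b to LHY2a counts averaged 1.17 ± 0.15 in transgenic plants (SD, n = 3) and was 2.24 in the untransformed plant. Within the LHY1 pair the share of LHY1a ranged from 80.4% to 82.3% over the 4 plants. LHY1a took 80.4% (79.5 to 81.2) of the LHY1 counts in tagged 1, 82.0% (80.8 to 83.1) in tagged 2, 82.2% (81.0 to 83.2) for the transgenic untagged plant, against 82.3% (81.9 to 82.7) in the untransformed plant.

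The ratio of the LHY2 pair to the LHY1 pair averaged 0.152 ± 0.026 in transgenic plants (n = 3) and was 0.92 in the untransformed plant, 6.04 times as high. The untransformed plant lay outside the range of the transgenic plants for this ratio and for LHY2b over LHY2a. An exact two-sided permutation test over 3 against 1 libraries gave p = 0.25 for both, which is the smallest p that the 4 arrangements allow. For LHY1a over LHY1b, at 4.42 ± 0.28 in transgenic plants and 4.65 in the untransformed plant, the exact permutation p was 0.5.

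**Figure D3:**
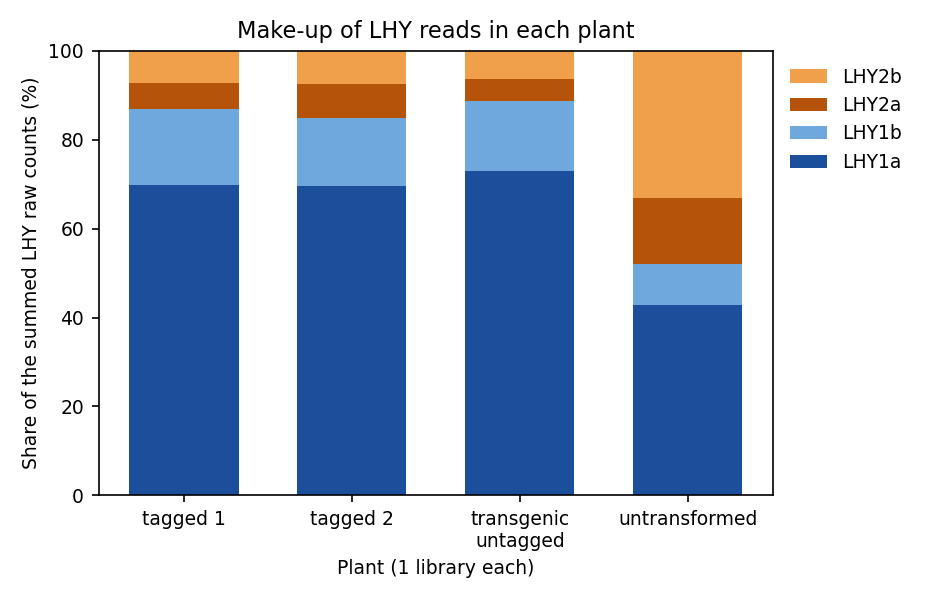
Share of each LHY gene in the summed raw counts of the 4 LHY genes, as stacked bars from 0 to 100%, 1 bar per library. LHY2a and LHY2b together fill 13.0% and 15.2% of the bars of the tagged plants and 11.3% of that of the transgenic untagged plant, against 47.9% in the untransformed plant.

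The study's own comparison set plants with the tag against plants without it, to ask what the insertion does to gene expression. With all 4 libraries, the values of the tagged plants lay between those of the untagged plants at each LHY gene, so the groups overlapped. LHY2b averaged 461 ± 34.1 normalized counts in tagged plants and 11902 ± 16326 in untagged plants (SD, n = 2 each). LHY1a averaged 4343 ± 154 in tagged plants and 17228 ± 18521 in untagged plants, where the SD exceeds the mean. Log2 fold changes were -1.99 ± 1.02 (SE) for LHY1a, -1.88 ± 0.98 for LHY1b, -3.68 ± 1.68 for LHY2a and -4.69 ± 1.96 for LHY2b, at an edgeR adjusted p of 0.947 for all 4.

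Of the 4 genes, 0 passed, and over the 38824 genes tested edgeR called 0% higher and 0% lower in tagged plants, with 444 genes at an unadjusted p under 0.05. DESeq2 called 6 genes (0.0164%) higher and 26 (0.0709%) lower of the 36676 genes it gave an adjusted p, with 0 LHY genes among the calls. Unadjusted, DESeq2 had 2038 genes at a p under 0.05, of 47796 genes fitted without the filter on low counts. Limma-voom called 0 of the 38824 genes, where 398 had an unadjusted p under 0.05. Set against the untransformed plant alone, the tagged plants differed and the LHY genes passed in edgeR, with log2 fold changes of -2.78 for LHY1a, -2.67 for LHY1b, -4.62 for LHY2a and -5.65 for LHY2b and adjusted p between 3.3e-05 and 9.9e-05. In that fit of 2 libraries against 1, all 4 LHY genes were called lower, as were 25.6% of all genes tested, and 23.8% of genes were called higher. Without the untransformed plant all 4 signs turned, as the comparison among transgenic plants shows.

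**Figure D4:**
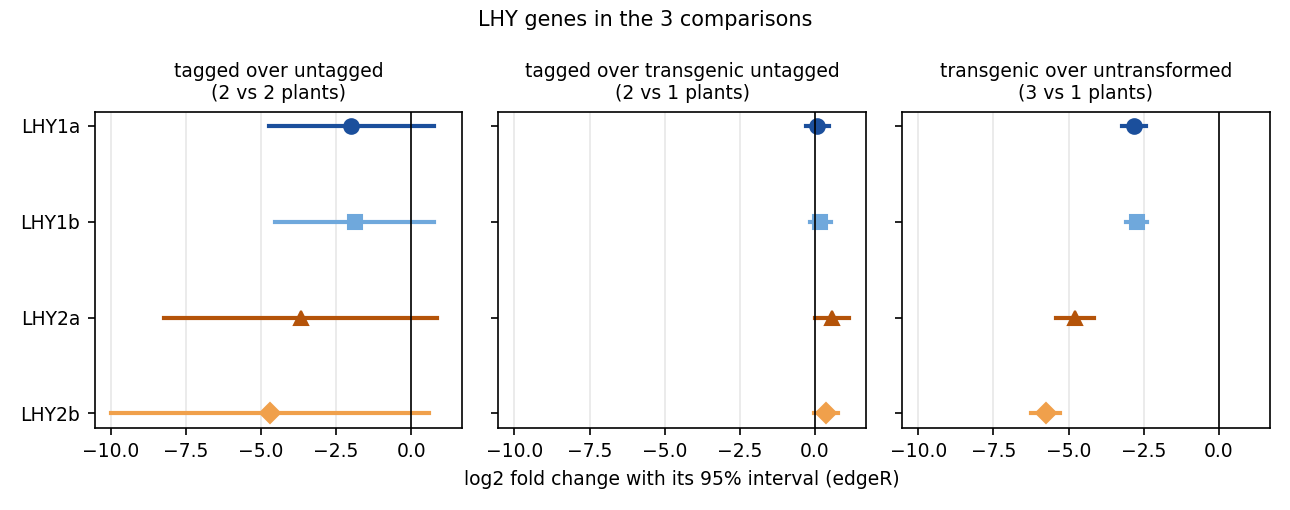
Log2 fold change (point) and 95% interval (line) of each LHY gene from edgeR in the 3 comparisons, with 0 marked by a vertical line. The intervals of tagged over untagged plants cross 0 at all 4 genes, those of tagged over the transgenic untagged plant cross 0 at all but LHY2a (0.011 to 1.14), and those of transgenic over untransformed plants lie between -6.24 and -2.38.

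Among the 3 transgenic plants, LHY values were slightly higher in the tagged ones than in the untagged one, and 0 of the 4 LHY genes passed the test. Each LHY gene was higher in both tagged plants than in the transgenic untagged plant, an order that 34.5% of the 39528 genes tested showed. The difference was smallest for LHY1a, at 4343 ± 154 normalized counts in tagged plants (SD, n = 2) and 4132 in the transgenic untagged plant. The edgeR fit put it at 1.06-fold (95% interval 0.808 to 1.38). LHY1b had 1006 ± 40.7 in tagged plants and 897 in the transgenic untagged plant, 1.13-fold in that fit (0.891 to 1.43).

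The LHY2 pair differed more, again without passing. LHY2a averaged 421 ± 97.6 normalized counts in tagged plants and 282 in the transgenic untagged plant, 1.49-fold (1.01 to 2.20), with an unadjusted p of 0.047 and an adjusted p of 0.522 from edgeR. LHY2b averaged 461 ± 34.1 in tagged plants and 358 in the transgenic untagged plant, 1.29-fold (0.975 to 1.72), at an edgeR adjusted p of 0.566. The LHY2a value depended on which tagged plant was used, with a log2 fold change of 0.79 without tagged 1 and 0.33 without tagged 2. The upper ends of these intervals were 2.20-fold for LHY2a and lower for the other 3 genes. The untagged plant adds no spread to them, so they set no bound on the effect of the tag. The estimated gaps to the untransformed plant were 6.62-fold to 54.1-fold. In this comparison 0 of 4 LHY genes were called, and edgeR called 0.00506% of all genes higher and 0.00506% lower. The untagged side is 1 library, which was assumed to vary like the tagged pair.

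In the order of levels, then, the untransformed plant was highest at each LHY gene, followed by the tagged plants and last by the transgenic untagged plant. The step from the untransformed plant to the rest passed the test at all 4 genes. The step between tagged plants and the transgenic untagged plant did not pass at any of them.

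The genes numbered beside the LHY genes did not share 1 direction. Of the 40 identifiers within 5 places on either side, 35 could be tested between transgenic and untransformed plants. Of these, 21 (60%) were lower and 6 (17.1%) higher in the transgenic plants, beside 25.8% and 23.3% of all genes, and their median log2 fold change was -0.84. The lowest neighbour, 1 of those beside LHY2a, was at -2.71. This is level with LHY1b at -2.73 ± 0.14 (SE) and near LHY1a at -2.81 ± 0.17. This window was chosen after the values of the LHY genes were known.

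Of the 7 tested genes numbered directly beside an LHY gene, 3 rose and 2 fell in transgenic plants. The gene numbered just after LHY1a had 186 and 232 normalized counts in the tagged plants and 259 in the transgenic untagged plant, against 27.0 in the untransformed plant, a log2 fold change of 3.08 in transgenic plants at an edgeR adjusted p of 8.2e-04. The gene numbered just after LHY1b had 177 and 408 in the tagged plants and 530 in the transgenic untagged plant, against 29.4 in the untransformed plant, a log2 fold change of 3.67 at an edgeR adjusted p of 0.00694. Each of these genes rose in transgenic plants, while the LHY gene before it fell. The genes numbered just before LHY1a and LHY1b fell, with log2 fold changes of -1.48 and -0.79 and edgeR adjusted p of 0.00115 and 0.0159. The gene numbered just after LHY2a also rose, with 198 and 227 normalized counts in the tagged plants and 243 in the transgenic untagged plant, against 68.1 in the untransformed plant, a log2 fold change of 1.72 at an edgeR adjusted p of 0.00282. LHY2b lies between genes with hardly any reads, of at most 13.8 normalized counts in any plant, and the gene numbered just before LHY2a had 0 counts in all 4 libraries. How far neighbours overlap, and whether reads were counted by strand, is not given in the sources used here.

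**Figure D5:**
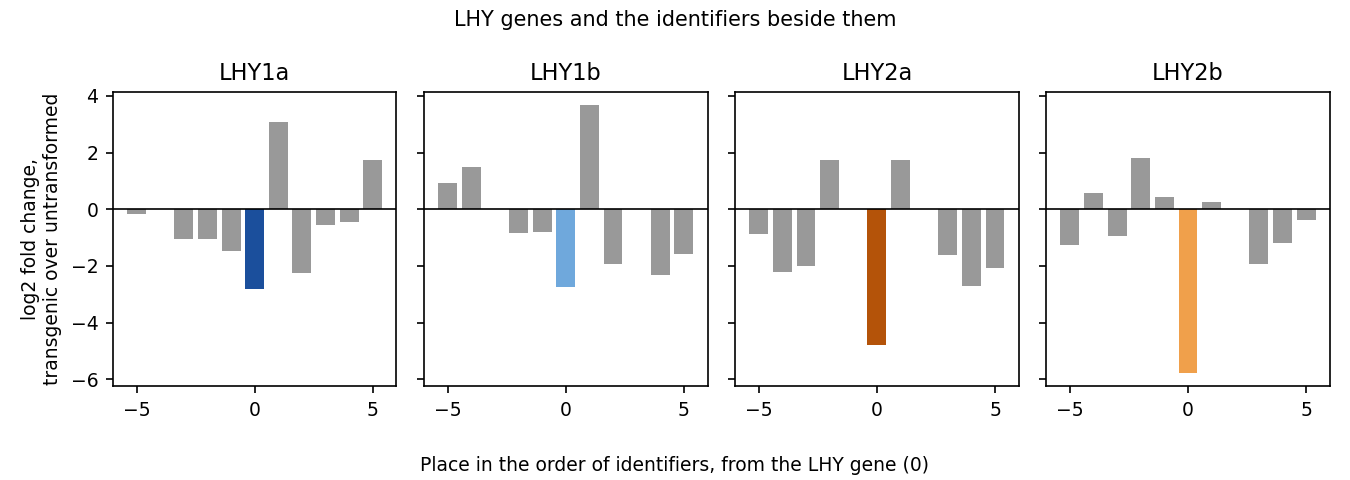
Log2 fold change of transgenic over untransformed plants for each LHY gene (coloured, at 0) and the tested genes among the 5 identifiers on each side (grey), in the order of identifiers. The genes just after LHY1a and LHY1b rise, by 3.08 and 3.67, where the LHY genes are at -2.81 and -2.73. The lowest grey bar, beside LHY2a, is at -2.71, level with LHY1b.

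The genes with the pattern most like the mean of the LHY genes over the 4 libraries were Glyma.03G205900 and Glyma.11G233800, by Euclidean distance between centred log2(normalized count + 1) values among 32963 genes. Glyma.03G205900 had 146 and 157 normalized counts in the tagged plants and 131 in the transgenic untagged plant, against 2407 in the untransformed plant, a distance of 0.070. Glyma.11G233800 had 421 and 417 in the tagged plants and 330 in the transgenic untagged plant, against 6307 in the untransformed plant, a distance of 0.130. Of the nearest mirror images, one was Glyma.20G002700, at 373 and 324 in the tagged plants and 430 in the transgenic untagged plant, against 23.5 in the untransformed plant. The other was Glyma.11G181800, at 556 and 426 in the tagged plants and 603 in the transgenic untagged plant, against 32.9 in the untransformed plant.

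Their likeness rests on 4 libraries, 1 of which stands apart. The mean pattern lies between those of the LHY1 and the LHY2 pair, and many genes are closer to it than the LHY genes themselves. LHY2a was at a distance of 0.748 with 337 other genes nearer, and LHY2b at 1.51 with 1421 nearer.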

How the data were processed

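The submitters' processing notes name DESeq2, HTSeq 0.6.1, HISAT2 2.1.0 and CASAVA 1.8; the genome build, annotation and strand setting were not given in the sources used here. The authors deposited raw read counts per gene and a scaled signal, made by dividing the counts of a library by its size factor. Multiplied by those factors, 100% of the deposited values were whole within 0.01. The factors were worked out from the raw counts, so the recovered reads repeat the raw counts. A fit of edgeR to the recovered reads therefore had to call the same numbers of genes (0 higher and 0 lower between tagged and untagged plants). How reads shared between close duplicates were counted is also not given, so the split between LHY1a and LHY1b, or LHY2a and LHY2b, is uncertain to that extent. The name of the transgenic untagged plant has 1 digit more in the design text than in the labels; both were read as 1 plant.

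Here, edgeR 4.0.16 (R 4.3.3; TMM scaling, default filter on low counts, quasi-likelihood test) was fitted to the raw counts of all genes, with Benjamini-Hochberg adjustment over all genes at 0.05. It was also run on simulated data in which all libraries were made to vary alike. That run could not test the assumption made for single libraries. The standard error is the absolute log2 fold change over the square root of F. The 95% intervals use the test's degrees of freedom, which include those borrowed from other genes. Folds given with an interval come from this fit, so they can differ slightly from ratios of the normalized counts printed beside them. All 4 LHY genes passed the filter in each comparison. Alternatives were DESeq2 1.42.0, limma-voom 3.58.1, other scalings and filters, a replicate block and leaving out libraries. The members, lists and tests were chosen with earlier results of these data known. The genes named were the 4 members and, by the planned rule, the 2 nearest profiles and the 2 nearest mirror images. The RefSeq table at hand (59048 genes) holds 0 of the files' identifiers, so the planned lists of other clock genes and of tissue markers were not used, no coordinates are given, and the tissue was not checked by markers.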

Additional observations from a re-analysis of the deposited data

How the results depend on the processing

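Between transgenic and untransformed plants, the 4 LHY genes stayed lower in all 10 alternatives run. These include the fit on recovered reads, which only repeats the reported fit. Log2 fold changes ran from -2.83 to -2.63 for LHY1a, -2.78 to -2.55 for LHY1b, -5.01 to -4.61 for LHY2a and -5.85 to -5.58 for LHY2b. Upper-quartile scaling raised the median log2 fold change of all genes there by 0.178. The share of called genes that were higher was 57.5%, against 47.4% with TMM. Relative to that median LHY2b was at -5.79 under either scaling. A change of scaling shifts all genes nearly alike, so that distance is no separate check. Among the transgenic plants no LHY gene passed under any alternative with a test; leaving out a tagged plant leaves 1 library against 1 and no test. The number of genes called there depended on the setting, with 2 higher and 2 lower in the test reported. DESeq2 gave 211 higher and 23 lower, limma-voom 0 and 0, RLE scaling 3 and 5, upper-quartile scaling 35 and 7, and no filter on low counts 318 and 43. Between tagged and untagged plants, DESeq2 gave 6 higher and 26 lower genes.

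Leaving out 1 library at a time between tagged and untagged plants gave 0 to 9669 genes higher, 0 to 10419 lower and 0 to 4 LHY genes called. Log2 fold changes ran from -2.78 to 0.079 for LHY1a, -2.67 to 0.18 for LHY1b, -4.62 to 0.58 for LHY2a and -5.65 to 0.37 for LHY2b. The upper ends of the counts came without the transgenic untagged plant (untagged replicate 1), and the positive log2 fold changes, 0.079, 0.18, 0.58 and 0.37, came without the untransformed plant (untagged replicate 2). The replicate numbers are only names in the labels, so they were not treated as pairs. Deviations of same-numbered libraries had a correlation of -0.052. On the untagged side that deviation is the gap between the transgenic untagged and the untransformed plant, so the correlation cannot decide on pairing. With the replicate number as a block, 0 genes were higher, 0 lower and 0 of the 4 LHY genes called. Log2 fold changes were then -1.36 for LHY1a, -1.26 for LHY1b, -2.05 for LHY2a and -2.66 for LHY2b. The alternatives for the list of other clock genes were not run. The cause of these changes was not tested.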
